A study of Mus musculus with 868 samples.

Results

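The genes described here are 10 genes of fatty acid synthesis: Srebf1, Mid1ip1, Acly, Me1, Acaca, Acacb, Fasn, Elovl6, Scd1 and Scd2. They were taken by symbol from count tables of 24 mouse tissues that hold 24421 gene symbols each, and all 10 were found in every table. The tissues came from C57BL/6N mice in 18 treatment groups, and their RNA was sequenced from the 3′ end (QuantSeq), so that a transcript gives about one kind of fragment whatever its length. There were 868 libraries, 2 for each group and tissue except 2 pairs that had 4 (brain with asenapine, jejunum with sofosbuvir). Levels are given in CPM, the counts of a gene scaled to a common library total, and are compared between tissues or groups, never between genes. The groups used below are Untreated mice, mice given 5% sucrose (Sucrose), mice 2 hours after APAP, mice given the vehicle CMCTween (0.5% CMC with 0.25% Tween80), and mice given cisplatin, Dox (2 mg per mL), EMPA for 2 weeks or asenapine. Alendronate, risedronate, lurasidone and olanzapine serve as the reference of asenapine. Aripiprazole, clozapine, lenalidomide, Repatha, sofosbuvir and teriparatide enter through the shared fits and the pooled counts. All of these but sofosbuvir are also in the reference where a drug is set against all other groups of its set. For clozapine, 1 library is also described by itself. The labels give no other dose or time for these groups, do not spell out the short names, and do not say which libraries came from the same mouse.

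Fatty acid synthesis turns spare carbohydrate into fat. Citrate leaves the mitochondrion and is split to acetyl-CoA by ATP citrate lyase (Acly), acetyl-CoA carboxylase (Acaca, and Acacb at the mitochondrion) makes malonyl-CoA, fatty acid synthase (Fasn) builds palmitate with NADPH that in part comes from malic enzyme (Me1), Elovl6 lengthens palmitate, and the stearoyl-CoA desaturases Scd1 and Scd2 put in a double bond. The pathway is known for its activity in liver and adipose tissue after feeding, when insulin raises the transcription factor encoded by Srebf1 (SREBP-1). Mid1ip1 encodes a small protein that promotes the polymerisation of acetyl-CoA carboxylase. Malonyl-CoA made by the Acacb product blocks the entry of fatty acids into mitochondria, so that Acacb is also a gene of the control of fatty acid oxidation, and Scd2 is the desaturase known for brain and for development.

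Because Fasn and Acly moved together in several of the tissues below, the 250 bases before their start sites are shown. Both windows come from the RefSeq promoter table on build GRCm38.p6, lie on chromosome 11 and are read on the minus strand. The capitals in Fasn mark the letters CCAAT on either strand, the core letters bound by NF-Y, a partner of SREBP-1. The capitals in Acly mark TCANNCCAC, a loose form of the sterol regulatory element.
Fasn promoter, chr11:120824548-120824797: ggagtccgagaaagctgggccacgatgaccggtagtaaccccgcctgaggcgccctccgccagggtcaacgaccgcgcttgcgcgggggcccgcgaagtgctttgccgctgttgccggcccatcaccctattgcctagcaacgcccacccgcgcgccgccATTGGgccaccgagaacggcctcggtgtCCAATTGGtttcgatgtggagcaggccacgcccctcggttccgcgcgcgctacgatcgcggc
Acly promoter, chr11:100528001-100528250: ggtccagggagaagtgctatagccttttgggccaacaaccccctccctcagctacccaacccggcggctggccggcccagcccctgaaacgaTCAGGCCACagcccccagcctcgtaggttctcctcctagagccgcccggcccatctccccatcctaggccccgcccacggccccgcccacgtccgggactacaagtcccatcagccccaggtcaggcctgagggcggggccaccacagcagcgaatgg
The Fasn window held 3 matches to CCAAT, of which the last pair, on opposite strands, overlap, and the Acly window held 1 match to TCANNCCAC. Of the 10 genes, 8 were in the table (all but Scd1 and Scd2), and in their windows CCAAT on either strand was found in 4 (Acacb, Fasn, Me1 and Srebf1) and TCANNCCAC in 3 (Acacb, Acly and Mid1ip1). Among all 32851 windows of the table, 33.8% held CCAAT and 3.52% held TCANNCCAC. The stricter form TCACNCCAC and the E-box CACGTG, which 1.05% and 6.02% of all windows held, had no match in any window of the 8 genes. GGGCGG, held by 32.7% of all windows, had a match in 4 of the genes. Srebf1 had 3 windows and Me1 had 2, and a gene was counted if any of its windows matched. Counts of genes and shares of windows are therefore in different units. These are matches of letters and do not show binding.

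In build mm10 with GENCODE M21, 4 of the genes lie on chromosome 11: Srebf1 at chr11:60199089-60222581 on the minus strand, Acaca at chr11:84129672-84401651 on the plus strand, Acly at chr11:100476353-100528000 on the minus strand and Fasn at chr11:120805846-120824547 on the minus strand. The desaturases are neighbours on chromosome 19, Scd2 at chr19:44293674-44306864 on the plus strand and Scd1 at chr19:44394455-44407879 on the minus strand. Of the distinct stretches of 50 bases in the annotated Scd1 transcripts, pooled, 3% were shared with Scd2 transcripts. Of the 1231 in the last 1000 bases of each Scd1 transcript, 0 were shared.

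Libraries held 451154 to 12811780 counts (median 877592), with 2875950 to 12811780 in the 48 Untreated libraries and 451154 to 3685250 in the 820 others. The expression values, not the labels, put the treatments into library sets, and drugs were compared within a set only: Sucrose with Untreated, APAP with the mean of both, cisplatin, Dox and EMPA with CMCTween, and asenapine, whose set has no control, with the mean of 4 other drugs. Comparisons of a set therefore share their control libraries, and the greater depth of the Untreated libraries cannot be told apart from the lack of treatment. The labels do not name the vehicle of cisplatin, Dox or EMPA. A difference between their vehicle and CMCTween therefore cannot be told apart from the drug. Log2 fold changes are given with their standard errors (SE) from edgeR's quasi-likelihood F test, with p adjusted by the Benjamini-Hochberg method over all genes tested in the comparison, and "rose" and "fell" are kept for an adjusted p under 0.05. The p-values measure the spread between libraries, which the labels do not tie to separate mice. All 5 hepatocyte markers stood above 1 CPM in every liver library and all 7 adipocyte markers in every WAT (white adipose tissue) library. The parotid libraries carried the salivary product Bpifa2, a gene chosen after the values were seen, and also brown adipocyte markers. The acinar cell list, which is made of genes of the pancreas, was low there: 2 to 3 of its 4 genes stood above 1 CPM in Untreated parotid gland, with sums of 8.97 to 38.1 CPM, and 0 to 1 with alendronate. The libraries labelled aorta held 11180 to 11230 CPM of the 4 brown adipocyte markers when untreated, Ucp1 among them, and the part of fat cells in the aorta levels was not tested.

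In Untreated mice, Fasn, Acaca and Scd1 had their highest means in WAT and Srebf1 and Acacb in aorta, while Acly, Me1 and Scd2 were highest in the adrenal gland, Elovl6 in skin and Mid1ip1 in lung. The top tissue was the same with sucrose and with CMCTween for Me1, Acacb and Scd2. It was aorta with both for Fasn, Acaca and Elovl6, liver (sucrose) or WAT (CMCTween) for Srebf1, aorta with sucrose for Acly and Scd1, and skin with sucrose for Mid1ip1. Fasn reached 4984 and 7911 CPM in the 2 Untreated WAT libraries and 3832 and 6058 CPM in aorta, followed by 917 and 1538 CPM in parotid gland. WAT and aorta overlapped, both stood above parotid gland, and liver, at 168 and 237 CPM, was far below all of them. With CMCTween, the Fasn levels of parotid gland and liver overlapped. The lowest mean was 24 CPM in pancreas. Acaca, the enzyme of the step before, followed the same order with 488 and 698 CPM in WAT and 421 and 633 CPM in aorta, which overlapped, and a mean of 104 CPM in parotid gland. Its isoform gene Acacb did not: 208 and 214 CPM in aorta were followed by 84.9 and 89.9 CPM in heart, 74.2 and 77.2 CPM in skeletal muscle and 68.1 and 73.3 CPM in skin, none of which overlapped with the next, and both bone marrow libraries were at 0.

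The genes that feed the pathway were highest in the adrenal gland. Me1 stood at 2714 and 2785 CPM there, at 950.1 and 1224 CPM in WAT and at 758 and 779 CPM in kidney, which overlapped with aorta. The adrenal libraries lay above those of every other tissue, and the lowest mean was 1.16 CPM in bone marrow. Acly reached 1129 and 1262 CPM in the adrenal gland, 449 and 948 CPM in aorta and 596 and 794 CPM in WAT, where aorta and WAT overlapped, and was lowest in skeletal muscle with a mean of 12.3 CPM. The regulators varied less. Srebf1 was at 42.7 and 44.5 CPM in aorta and 42 and 43.6 CPM in WAT, which overlapped, against a mean of 1.94 CPM in testis, the lowest. Mid1ip1 was highest in lung (155 and 156 CPM), then in stomach (116 and 125 CPM) and skin (94.5 and 100.5 CPM), and these tissues did not overlap.

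The desaturases differed in their order of tissues. Scd1 was at 4594 and 5974 CPM in WAT, 3818 and 3902 CPM in aorta and 1207 and 1891 CPM in liver, with no overlap, and at a mean of 4.67 CPM in testis. Scd2 was at 905 and 965 CPM in the adrenal gland, 543 and 567 CPM in lung, 453 and 543 CPM in colon and 451 and 473 CPM in brain, where colon overlapped with brain, and its lowest mean of all 24 tissues, 2.52 CPM, was in liver. Liver thus had the third highest Scd1 and the lowest Scd2. Brain had more Scd2 and less Scd1 than liver, with Scd2 at 7.38 ± 0.30 and Scd1 at −5.36 ± 0.41 on the log2 scale against liver (adjusted p = 1.4e-21 and 6.4e-14, edgeR). Elovl6 was highest in skin at 236 and 256 CPM and in aorta at 172 and 225 CPM, without overlap, and its WAT and liver levels did not differ beyond their spread (difference −0.03 ± 0.28, adjusted p = 1).

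**Figure D1:**
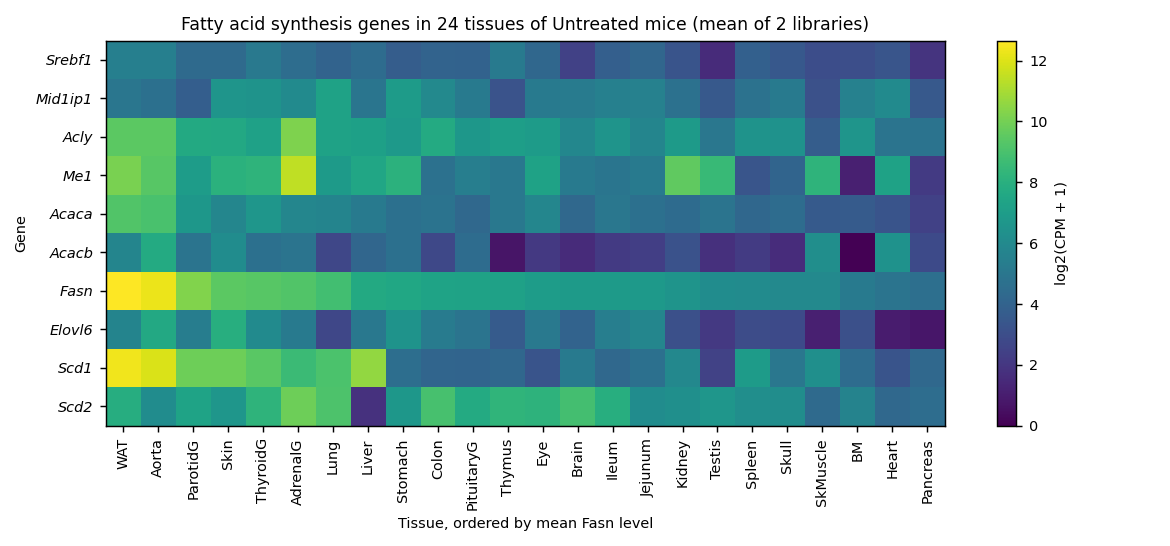
Mean level of the 10 genes (vertical axis) in the 24 tissues of Untreated mice (horizontal axis, ordered by the Fasn level), as the colour of log2(CPM + 1), each cell the mean of 2 libraries. Fasn, Acaca and Scd1 peak in WAT and aorta, Me1, Acly and Scd2 in the adrenal gland, and Scd2 is lowest in liver.

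Across the tissue means Acaca, Scd1 and Acly were close to Fasn, and Scd2 was not close to Scd1. Pearson's r of log2(CPM + 1) over the 24 tissue means, which share libraries and depth, was 0.954 between Acaca and Fasn, 0.838 between Fasn and Scd1 and 0.812 between Acly and Fasn. It was −0.00679 between Scd1 and Scd2 and −0.204 between Acacb and Scd2. By this measure the 3 genes most like Fasn among all genes were Acaca, Adrb3 (the adrenergic receptor of adipocytes, 0.919) and Cidec (a lipid droplet protein, 0.893), and those most like Scd1 were Car3 (0.863), Cebpa (0.85) and Adrb3 (0.843). The genes most like Scd2 were Boc (0.781), Prmt2 (0.775) and Ngfrap1 (0.775), and none of the 3 genes most like Acacb, among them Fitm2 at 0.852, belonged to the 10.

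In Untreated mice, 5 of the tissues are then set against the mean of the others. This was done for 9 of the genes, since Acacb was at 0 in bone marrow. In WAT 8 were higher and none lower, from Elovl6 and Scd2 (1.43 and 0.95) to Fasn and Scd1 (5.12 and 6.05, log2). Elovl6 and Scd2 took the other sign in WAT when the CMCTween libraries stood in for the Untreated ones. In that comparison 35.8% of all genes were called in either direction. Liver had 7 higher and 1 lower, with Scd1 at 4.84 and Scd2 at −5.02 as the extremes (47.6% of all genes called). Without liver replicate 2 the liver count was 5. The adrenal gland had 7 higher and none lower (36%), and skin 7 higher and 1 lower, Scd2 at −0.45 (42.6%). Brain had 2 higher, Scd2 at 2.69 and Mid1ip1 at 0.67, and 5 lower (51.8%). The brain count of 7 was 4 with RLE scaling and 2 with CMCTween libraries, and the WAT count of 8 was 5 with CMCTween libraries. Since such large shares of all genes were called, the counts are a description of the tissues.

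Set directly against liver, WAT held 7 of the 10 genes at higher and 1 at lower levels (46.7% of all genes called). Scd2 differed most, by 5.71, then Fasn by 4.37 and Acaca by 3.42 on the log2 scale, and Mid1ip1 was lower, at −0.57, a sign that turned when libraries were scaled by their totals alone. Of the 7 higher genes 3 turned as well when other controls stood in for the Untreated libraries: Acly to −0.43 with CMCTween, and Acacb to −0.86 (adjusted p = 0.038) and Scd1 to −0.077 with Sucrose. Srebf1 differed by 0.38 ± 0.26 (adjusted p = 0.26). In brain against liver 1 gene was higher, Scd2, and 8 were lower (58.3%).

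In liver, mice given 5% sucrose had more Srebf1 and Scd1 RNA than Untreated mice. The Scd1 levels were 1207 and 1891 CPM in the Untreated livers and 7737 and 6886 CPM with sucrose. Both sucrose livers lay above both Untreated livers. The difference was 2.13 ± 0.28, adjusted p = 1.2e-05 on the log2 scale. Srebf1 rose from 21.1 and 21.8 CPM to 118 and 82.7 CPM (2.11 ± 0.27, adjusted p = 8.6e-06), without overlap. Elovl6 and Me1 rose as well, by 1.18 and 0.75. The enzymes between them gave no call: Fasn was at 237 and 168 CPM and then 308 and 406 CPM (0.71 ± 0.36, adjusted p = 0.2), and Acly, the first enzyme of the pathway, at −0.60 with an adjusted p of 0.086. In all, 4 of 9 genes tested rose and none fell, where 13.0% of all genes were called, and Scd2, with too few counts in liver, was not tested. The median of the 9 was 0.71, against −0.0292 over all genes. The count fell to 2 without sucrose replicate 1.

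The other gene lists went in different directions in the sucrose livers. Of the 9 genes of further elongation and desaturation tested none rose and 3 fell, Elovl3 by 0.92, Elovl1 by 0.80 and Tecr by 0.69. Of 11 regulators tested, Thrsp, a paralog of Mid1ip1 that responds to carbohydrate, rose by 2.12 and Rxra fell by 0.55, a share of calls near the 13.0% of all genes. Of 11 genes that supply acetyl-CoA and NADPH, 3 rose and none fell, with Pklr, the pyruvate kinase of liver, at 1.23. Genes of fatty acid oxidation and fasting were split, with 4 of 16 higher and 3 lower. Macrophage markers summed to 31 to 36.5 CPM with sucrose and 61.5 to 81.4 CPM in Untreated livers, and their part in the result was not tested.

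Most of the genes were lower in the livers taken 2 hours after APAP than in the Untreated and Sucrose livers together. Mid1ip1 was at 32.2 and 26.8 CPM in Untreated, 52.9 and 43 CPM in Sucrose and 3.22 and 3.4 CPM in APAP livers. Fasn was at 61.2 and 81.7 CPM after APAP, below the lowest of the 4 control livers, and so was Acly at 42.9 and 38.6 CPM against 180.4 and 114 CPM in Untreated and 111 and 100.5 CPM in Sucrose. All 3 genes lay below every control liver without overlap. The changes of Fasn and Acly were −1.88 ± 0.39, adjusted p = 0.00088 and −1.58 ± 0.26, adjusted p = 5.2e-05. Elovl6 (−1.97 ± 0.45), Acaca (−1.30 ± 0.37) and Me1 (−0.66 ± 0.18) fell too. Of 9 genes tested 7 fell and none rose, where 16.5% of all genes were called in either direction, and the median of the 9 was −1.58 against −0.0241 over all genes. Scd1 went without a call: its 3154 and 2352 CPM lay between the Untreated and the Sucrose livers (−0.26 ± 0.24, adjusted p = 0.53), and Acacb was at 0.10 ± 0.34, adjusted p = 0.89. Without APAP replicate 1 the count was 4.

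The fall in the APAP livers went along with higher levels of genes of fatty acid oxidation and fasting, of which 12 of 16 tested rose and none fell. Fgf21, a liver hormone of fasting, rose by 7.85, Cyp4a14 by 4.73, Ehhadh by 3.58 and Cyp4a10 by 3.43. Of 11 regulators 4 fell, among them Thrsp by 3.44, Insig1 by 2.01 and Mlxipl (the carbohydrate-responsive factor ChREBP) by 1.30, and Insig2, which holds SREBP precursors in the endoplasmic reticulum, rose by 1.67. Of 11 supply genes 5 fell and none rose, with Pklr at −2.04 and Acss2, which makes acetyl-CoA from acetate, at −1.63. Macrophage markers summed to 36.5 to 37.4 CPM after APAP, as low as with sucrose. Whether the mice had eaten is not given in the labels.

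In cisplatin livers Scd1 had the largest change of the 9 genes tested. The 2 libraries held 29.7 and 34.6 CPM, against 2658 and 3101 CPM in the CMCTween livers. The other liver libraries of the same set held at least 2019 CPM. The change was −6.39 ± 0.38, adjusted p = 5.9e-13. Srebf1 fell from 132 and 66.7 CPM to 21.2 and 33.4 CPM (−1.76 ± 0.36), and Me1 fell by 0.91. Fasn, at 109 and 198 CPM against 169 and 212 CPM, overlapped with its control (−0.22 ± 0.42, adjusted p = 0.82), and Acly and Acaca, at −0.19 and −0.03, were not called. So 3 of 9 genes fell and none rose (10% of all genes called), with a median of −0.53 against −0.0119 over all genes. The count was 1 without CMCTween replicate 3 and 5 against all other groups of the set. Of the 9 genes of further elongation and desaturation tested in the same livers, 3 fell, among them Elovl3 by 3.62 and Elovl2 by 1.80, and 1 rose. Of the fasting list Cyp4a10 rose (1.65) while Ehhadh (−2.25) and Ppara (−1.19) fell, and no supply gene of 11 was called by edgeR. Hepatocyte markers summed to 71580 to 96640 CPM with cisplatin and 64440 to 64790 CPM with CMCTween, and macrophage markers to 17.9 to 38.1 and 56.6 to 84.9 CPM, and their part in the result was not tested.

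In Dox livers 4 genes of the pathway rose against CMCTween livers. Acacb was at 7.23 and 7.27 CPM in the CMCTween and 31.4 and 60.7 CPM in the Dox livers. Me1 was at 113 and 113 CPM and 327 and 333 CPM. Neither overlapped with its control. The CMCTween levels of Acacb were low for the depth of the liver libraries (median 835684 counts), so that the size of its change rests on few reads. The changes were 2.84 ± 0.49, adjusted p = 0.0019 for Acacb and 1.68 ± 0.22, adjusted p = 0.00011 for Me1, and Elovl6 and Acly rose by 1.54 and 1.27. Hence 4 of 9 genes rose and none fell in a comparison that called 0.570% of all genes, with a median of 0.92 against 0.00208. Fasn was at 368 and 295 CPM (0.92 ± 0.40, adjusted p = 0.39). Acss2 (2.04), Insig1 (1.37) and Elovl5 (1.24) rose in the same livers, while none of the 16 oxidation genes was called by edgeR. The call count was 1 without CMCTween replicate 3, 1 without Dox replicate 4, 2 without Dox replicate 3, and 2 with DESeq2 or with libraries scaled by their totals.

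**Figure D2:**
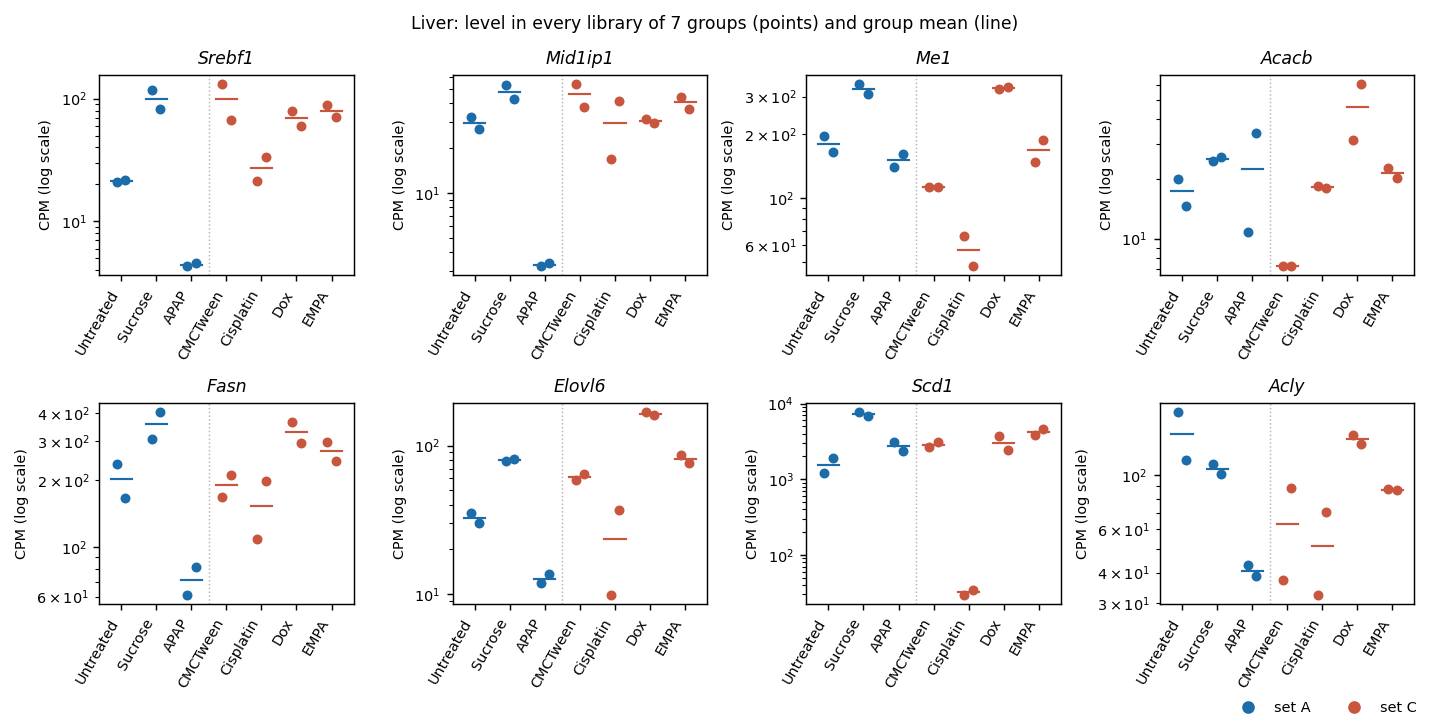
CPM on a log axis of 8 of the genes in each liver library of 7 groups, 1 panel per gene, with points for libraries, lines for group means and colours for the library set. Within set C, Scd1 is lowest in the 2 cisplatin livers, and within set A, Mid1ip1 and Srebf1 are lowest in the APAP livers.

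In WAT, APAP lowered the steps up to palmitate and one desaturase. Fasn was at 4984 and 7911 CPM in Untreated, 5906 and 5003 CPM in Sucrose and 1165 and 468 CPM in APAP fat. Acly was at 596 and 794 CPM, 445 and 363 CPM and 55.9 and 70.3 CPM in the same order, and Scd2 at 217 and 258 CPM, 249 and 300.5 CPM and 18.6 and 14.7 CPM. The APAP libraries lay below all 4 controls for all 3 genes. The changes were −3.93 ± 0.56, adjusted p = 2.6e-05 for Scd2, −3.05 ± 0.34, adjusted p = 1.2e-06 for Acly and −2.84 ± 0.41, adjusted p = 2.6e-05 for Fasn, and Elovl6 (−2.10), Me1 (−1.69) and Acaca (−1.50) fell as well. Acacb rose, from 43 and 62.7 CPM in Untreated and 20.1 and 20.6 CPM in Sucrose to 95.6 and 110.1 CPM (1.66 ± 0.40, adjusted p = 0.0049). Scd1 was without a call at 12420 and 10430 CPM, above all 4 controls (4594 and 5974 CPM in Untreated and 10110 and 10100 CPM in Sucrose fat, 0.66 ± 0.32, adjusted p = 0.17). In all 6 of 10 fell and 1 rose (16.4% of all genes called), the median of the 10 was −1.59 against −0.00942 over all genes, and the count was 3 without APAP replicate 2. The summed adipocyte markers were 7611 to 7837 CPM after APAP and 8416 to 9075 CPM in Untreated fat. In Sucrose fat they summed to 7770 to 8602 CPM, which overlapped with APAP. Of the 7 adipocyte markers 1 rose and 1 fell by the test. Plin1 was at 205 and 173 CPM after APAP, below all 4 controls. Macrophage markers summed to 245 to 247 CPM after APAP, below the 335 to 409 CPM in Sucrose and 354 to 384 CPM in Untreated fat, and their part in the result was not tested. Of 11 supply genes 7 fell and none rose. Of 12 genes of fatty acid activation and triglyceride synthesis, 3 fell, among them Dgat2 by 3.54 and Pnpla3 by 3.08, and 2 rose. Of 8 genes of insulin-responsive glucose metabolism, 3 rose, among them Pck1 by 1.55, and 1 fell.

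Cisplatin fat had little Fasn and Scd1. Fasn was at 812 and 1240 CPM with CMCTween and 147 and 150.4 CPM with cisplatin, and Scd1 at 7809 and 9390 CPM and 583 and 1273 CPM. The cisplatin libraries lay below their controls for both genes. The changes were −3.24 ± 0.41, adjusted p = 1.2e-05 for Scd1 and −2.81 ± 0.44, adjusted p = 0.00014 for Fasn. Scd2 (−2.12), Srebf1 (−2.02) and Mid1ip1 (−1.36) fell and Acacb rose (33.2 and 40.5 CPM to 211 and 241 CPM, 2.59 ± 0.47, adjusted p = 0.00073). That made 5 lower and 1 higher of 10 (9.02% of all genes called), with a median of −1.68 against 0.0253. The count was 3 without cisplatin replicate 1 and 10 against all other groups of the set. Acly and Acaca, at −0.89 and −0.52, were not called against CMCTween. Adipocyte markers summed to 6805 to 8604 CPM with cisplatin and 8865 to 8909 CPM with CMCTween, and Lep, the leptin gene, fell by 2.15.

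In Dox and EMPA fat the same 5 genes rose against CMCTween: Acly, Elovl6, Fasn, Acaca and Me1. Fasn was at 5089 and 3856 CPM with Dox and 5426 and 6387 CPM with EMPA, against 812 and 1240 CPM with CMCTween. Acly was at 642 and 378 CPM with Dox, 579 and 653 CPM with EMPA and 67.2 and 106 CPM with CMCTween. Neither gene overlapped with its control. The changes with Dox were 2.70 ± 0.35, adjusted p = 0.00028 for Acly and 2.25 ± 0.42, adjusted p = 0.014 for Fasn, those with EMPA 2.92 ± 0.35, adjusted p = 6.5e-05 and 2.60 ± 0.43, adjusted p = 0.004. Both comparisons share the CMCTween libraries. In each, 5 of 10 rose and none fell where 0.401% (Dox) and 0.534% (EMPA) of all genes were called. The medians of the 10 were 1.74 with Dox and 1.85 with EMPA, against 0.0255 and 0.0254 over all genes. Scd1 was at 0.48 ± 0.38, adjusted p = 0.73 with Dox and 0.58 ± 0.38, adjusted p = 0.62 with EMPA, and Srebf1 at −0.25 and −0.15, none of them called. Of 11 supply genes 5 rose and none fell with either drug, among them Acss2 (2.11 with Dox, 2.59 with EMPA) and Tkt of the pentose phosphate pathway (1.81 and 1.81).

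These calls in Dox and EMPA fat rest on few libraries. For Dox, leaving out CMCTween replicate 3 gave 0, CMCTween replicate 4 or Dox replicate 3 gave 1, and Dox replicate 4 gave 3. Leaving out CMCTween replicate 3 or EMPA replicate 2 gave 2 for EMPA, and leaving out CMCTween replicate 4 gave 1. With libraries scaled by their totals the counts were 1 for Dox and 2 for EMPA, with only the set's libraries in the fit 1 and 4, and against all other groups of the set 6 and 6. Adipocyte markers summed to 8457 to 9249 CPM with Dox and 10020 to 10320 CPM with EMPA. One library of the set, clozapine replicate 3, held 957 CPM of these markers where the other clozapine library held 9695 CPM, and its Fasn was at 144 CPM. Without it, a choice made after the values were seen, the counts were 8 for APAP, 7 for cisplatin, and 6 for Dox and for EMPA.

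**Figure D3:**
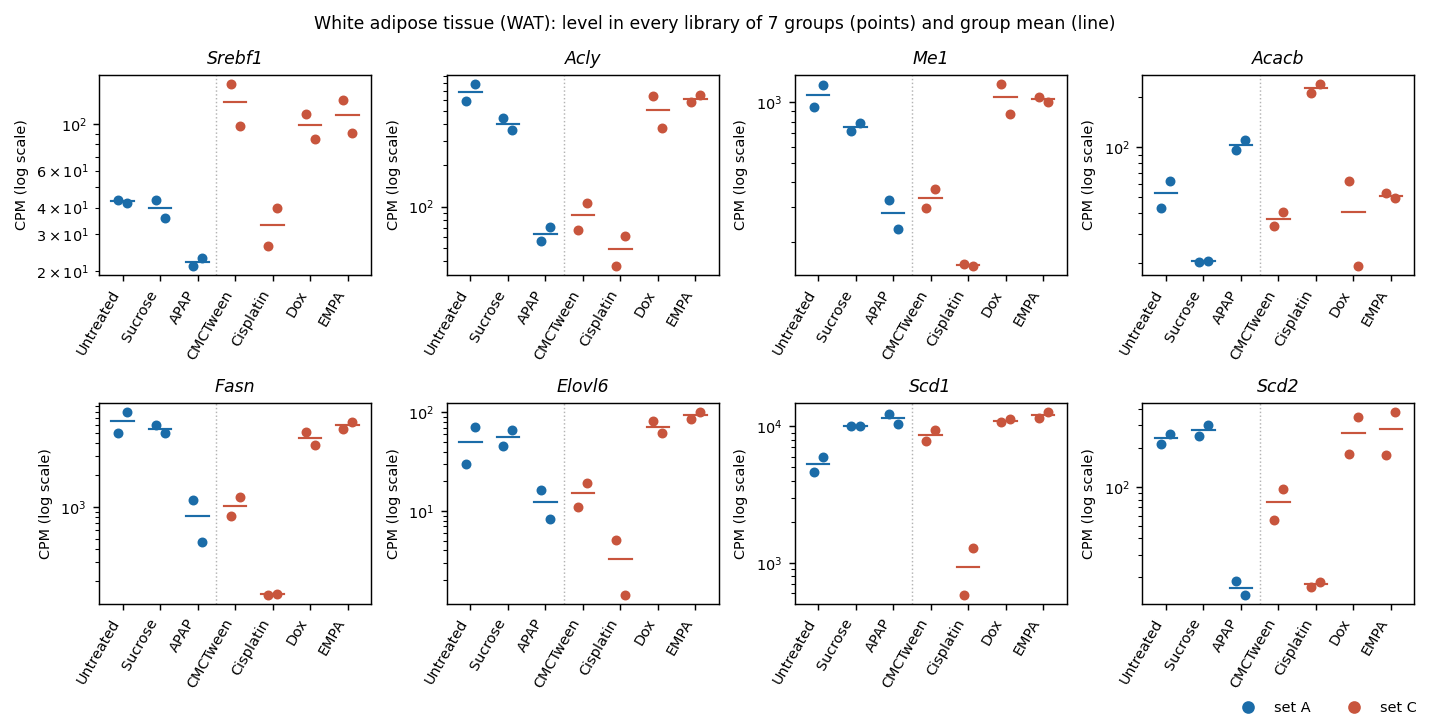
CPM on a log axis of 8 of the genes in each WAT library of 7 groups, 1 panel per gene, with points for libraries, lines for group means and colours for the library set. Within set C, Fasn is lowest with cisplatin, and its CMCTween libraries lie below those with Dox and EMPA.

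The remaining 24 comparisons of liver and WAT called 3 of 228 tests of these genes, where 0.998% of all tests of all genes were called. That count was 53 with no filter on low counts, 13 with only the set's libraries in the fit and 8 with DESeq2.

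Liver and WAT libraries were fitted together to test whether their responses differed. With sucrose 3 genes differed, Srebf1 by −2.36 ± 0.28, adjusted p = 0.00015, Me1 by −1.40 ± 0.22, adjusted p = 0.005 and Scd1 by −1.32 ± 0.26, adjusted p = 0.026 (WAT minus liver, log2), in a test that called 0.242% of all genes. Srebf1 rose in liver and was at −0.18 in WAT, so that its response to sucrose was the larger one in liver. With APAP 7 of 10 differed (5.48% of all genes). Srebf1 and Mid1ip1 were the genes that fell more in liver (differences of 2.39 and 2.84), while Acly and Me1 fell more in WAT (−1.53 and −1.09). Acacb and Scd1 were higher in the WAT response by 1.51 and 0.85, and the difference of Scd2, −3.74, rests on a liver level near the lowest that the depth can show. Fasn, at −1.88 in liver and −2.84 in WAT, gave no call for the difference (−1.02 ± 0.41, adjusted p = 0.17). With cisplatin Scd1 fell more in liver (difference 3.11 ± 0.67, adjusted p = 0.01) and Fasn more in WAT (−2.63 ± 0.62, adjusted p = 0.02), where 1.75% of all genes were called, and neither passed when libraries were scaled by their totals. For Dox and EMPA none of the 10 passed, with adjusted p-values from 0.21 up.

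Outside liver and WAT, 10 pairs of a treatment and a tissue are described, those with most of the genes called, and 5 of them were in the parotid gland. With Dox, Fasn was at 1519 and 1769 CPM against 103 and 283 CPM with CMCTween, and Acly at 223 and 253 CPM against 24 and 44.3 CPM. The drug libraries lay above their controls for both. The changes were 3.16 ± 0.38, adjusted p = 7.1e-07 and 2.86 ± 0.26, adjusted p = 3.6e-09, and 7 of 10 genes rose and none fell (2.84% of all genes called), with a median of 2.38 against −0.00885. With EMPA 5 rose and none fell (0.331%), Fasn being at 914 and 858 CPM (2.41 ± 0.37, adjusted p = 0.00048). The EMPA count was 1 without CMCTween replicate 3. Asenapine glands, set against 4 other drugs, had 7 genes higher and 1, Scd2 at −0.96, lower (8.96%). In them Fasn was at 1600 and 1910 CPM, and both libraries lay above the 214 to 793 CPM of the other drugs (1.68 ± 0.25, adjusted p = 1.1e-05). Without asenapine replicate 4 the count was 5.

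In set A the parotid genes moved both ways. Sucrose raised 6 and lowered 1 of 10 (14.9% of all genes called), with Fasn at 917 and 1538 CPM in Untreated and 4753 and 2940 CPM in Sucrose glands (1.24 ± 0.35, adjusted p = 0.014), Scd1 at 1.77 and Scd2 at −0.84. The groups did not overlap for Fasn, and the count was 1 without sucrose replicate 1 and 2 without Untreated replicate 2. APAP lowered 6 and raised none (6.69%), with Fasn at 354 and 225 CPM, below all 4 controls (−2.54 ± 0.35, adjusted p = 8.2e-06). Thrsp was called in all 5 of these comparisons, at 2.02 with Dox, 1.57 with EMPA, 1.28 with asenapine, 1.22 with sucrose and −2.21 with APAP. Supply genes rose in 7 of 11 with Dox and with asenapine and fell in 6 of 11 with APAP. Of 13 genes of fatty acid oxidation and fasting, 7 rose with asenapine, 4 with sucrose and 1 with Dox, and none fell. With EMPA none of the 13 was called, and with APAP 2 rose and 1 fell.

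Other measures moved along in the parotid libraries. The 7 adipocyte markers summed to 236 to 272 CPM with CMCTween, 427 to 494 with Dox, 289 to 437 with EMPA, 517 to 532 with asenapine, 257 to 452 in Untreated, 369.8 to 683 with sucrose and 217 to 309 with APAP. They were also high with cisplatin, 471 to 590 CPM, where Fasn was at 49.3 and 49.8 CPM. The 4 brown adipocyte markers summed to 365 to 479.8 CPM with CMCTween, 454 to 699 with Dox, 1254 to 1293 with asenapine, 689 to 1148 in Untreated and 1533 to 2572 with sucrose. They were at 302 to 496 CPM with EMPA, where Fasn rose, and at 693 to 756 CPM with APAP, where Fasn fell against the mean of Untreated and Sucrose. The APAP sums lay within the Untreated range and below both Sucrose glands. In the 4 drugs that asenapine was set against, adipocyte markers summed to 229.5 to 398 CPM and brown adipocyte markers to 322 to 665 CPM. The secretory product Bpifa2 took 10.1 to 11.2% of all counts in Untreated, 7.97 to 10.2% in APAP, 18.9 to 20.1% in CMCTween, 26.9 to 28.9% in Dox, 18.2 to 21.4% in EMPA and 30.3 to 30.4% in asenapine glands, against 16.6 to 22.4% with the other 4 drugs of the asenapine set. In bulk tissue, more cells of a type and more RNA per cell cannot be told apart, and the part of fat cells and of secretory products in these results was not tested.

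**Figure D4:**
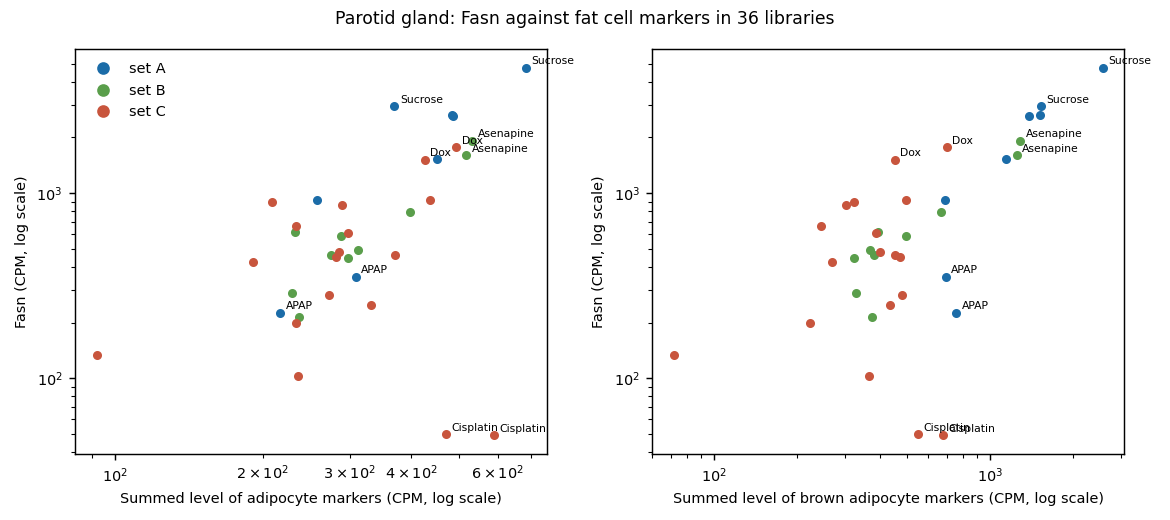
Fasn level of each of 36 parotid libraries against the summed level of the 7 adipocyte markers (left) and the 4 brown adipocyte markers (right), all in CPM on log axes, with colours for the library set and 5 treatments named. The 2 cisplatin libraries have high adipocyte marker sums and the lowest Fasn levels of set C.

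In aorta APAP lowered 6 of 10 genes and raised none (6.43% of all genes called). Acly was at 948 and 449 CPM in Untreated, 1868 and 2648 CPM in Sucrose and 157 and 149 CPM in APAP libraries (−3.14 ± 0.53, adjusted p = 0.00041), below all 4 controls. Fasn, at 6058 and 3832 CPM, 16900 and 19550 CPM and 3560 and 3082 CPM in the same order, fell by 1.61 against the mean of the controls, of which the Sucrose libraries were far the higher. Against Untreated alone the count was 2, and it was 3 without APAP replicate 1, APAP replicate 2, Sucrose replicate 2 or Untreated replicate 1. Adipocyte markers summed to 2816 to 2856 CPM after APAP, 3267 to 3345 in Untreated and 2298 to 2371 in Sucrose libraries. Brown adipocyte markers were above all 4 controls after APAP, at 12440 to 12850 CPM against 11180 to 11230 in Untreated and 10430 to 12120 in Sucrose libraries, and the part of fat cells in the result was not tested. Thrsp and Acss2 fell in the same libraries by 1.93 and 2.37.

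In thymus the sucrose result rested on 1 library. Scd1 was at 25.1 and 10.4 CPM in Untreated and 781 and 59.6 CPM in Sucrose thymus, and Fasn at 167 and 134 CPM and 1173 and 202 CPM. Sucrose replicate 1 stood far above replicate 2. By the test 5 of 10 genes rose and none fell (17.8% of all genes called), with Scd1 at 4.54 ± 0.60, but without sucrose replicate 1 the count was 0, and 2 of the 5, Acaca and Me1, turned to −0.16 and −0.47. It was 3 without Untreated replicate 4. Sucrose replicate 1 also held 257 CPM of adipocyte and 437 CPM of brown adipocyte markers, where sucrose replicate 2 held 36.8 and 10.8 CPM and the Untreated thymus at most 21.6 and 12.1 CPM. APAP lowered 5 of 10 genes in thymus and raised none (25.4%). Fasn was at 84.7 and 99.2 CPM after APAP, below all 4 controls (−2.04 ± 0.36, adjusted p = 2.8e-05), and Acaca, Acly, Me1 and Scd2 were at −1.74, −0.92, −1.01 and −0.47. These controls include sucrose replicate 1: without it Fasn was at −1.16 (adjusted p = 8.8e-05), Acaca at −1.22 and Acly at −0.54, and Me1 (−0.25, adjusted p = 0.66) and Scd2 (−0.47, adjusted p = 0.056) were no longer called. Against Untreated alone Fasn was at −0.99 (adjusted p = 0.052). The count was 3 without APAP replicate 1, APAP replicate 2, Sucrose replicate 1 or Untreated replicate 2.

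In skin cisplatin lowered 5 of 10 genes and raised 1 (15.7% of all genes called). Elovl6 was at 162 and 341 CPM with CMCTween and 64.9 and 73.9 CPM with cisplatin (−1.85 ± 0.30, adjusted p = 0.00012). The cisplatin libraries lay below their controls. Scd2 (−1.84), Scd1 (−1.48), Fasn (−1.33) and Acly (−1.14) fell and Acacb rose (1.24). Of 13 oxidation genes 9 rose and none fell, with Pdk4, which shuts off the use of glucose, at 4.32, and of 11 supply genes 6 fell and none rose. Beside this, sebaceous gland markers summed to 259.5 to 293 CPM against 428 to 552 with CMCTween, and muscle fibre markers to 17770 to 19320 against 1958 to 8482 CPM. The share of these cells in the result was not tested.

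Cisplatin skeletal muscle had a raised Acacb, 199.8 and 185 CPM against 80 and 83.3 CPM with CMCTween (1.15 ± 0.16, adjusted p = 6.9e-07), without overlap. Scd1 fell from 85.6 and 85.8 CPM to 6.91 and 16.8 CPM (−2.92 ± 0.55, adjusted p = 6.3e-05), and Srebf1, Scd2 and Me1 fell by 1.16, 1.08 and 0.36. That is 4 lower and 1 higher of 9 tested, where 36.2% of all genes were called. Muscle fibre markers summed to 68510 to 74710 CPM with cisplatin and 95190 to 97550 CPM with CMCTween, and their part in the result was not tested. Of 12 genes of fatty acid oxidation and fasting tested in the same muscle, 5 rose, among them Pdk4 by 2.49 and Angptl4 by 3.64, and 2 fell. The count was 3 without CMCTween replicate 4 or either cisplatin replicate, 2 with DESeq2, 3 with no filter or with libraries scaled by their totals, and 8 against all other groups of the set.

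**Figure D5:**
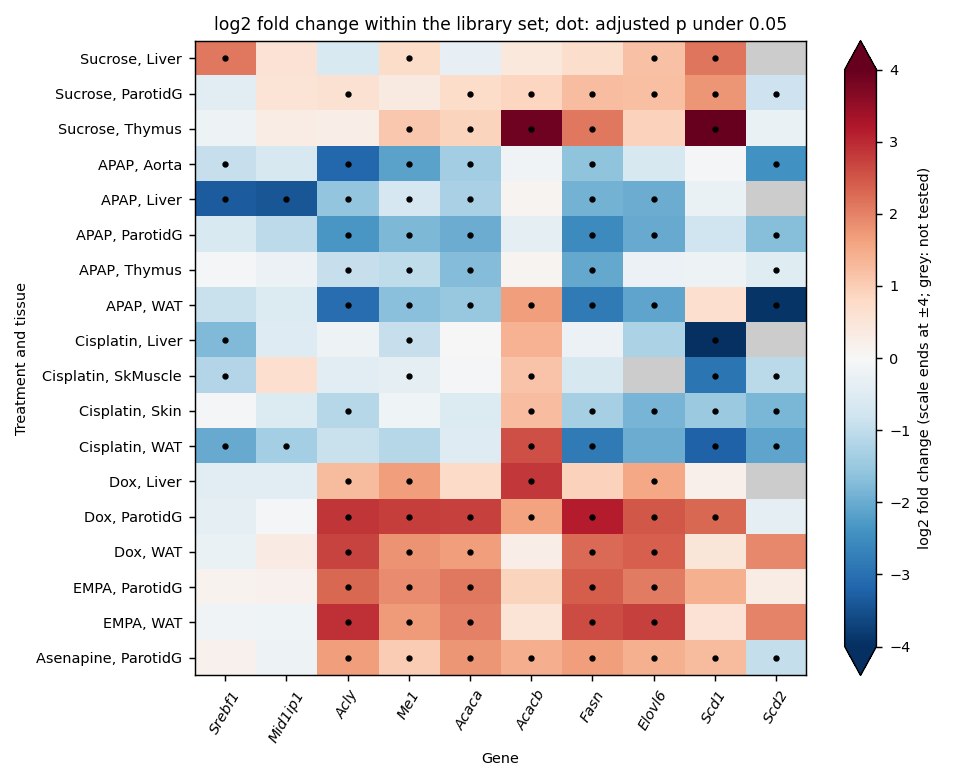
Log2 fold changes (colour, scale ending at ±4, grey where not tested) of the 10 genes (horizontal axis) in the 18 comparisons described (vertical axis), with a dot for an adjusted p under 0.05 by edgeR. Dots fall mostly on lower levels with APAP and cisplatin and on higher ones with Dox and EMPA, and those of Acacb on higher levels.

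Over all 24 tissues and 16 comparisons, 2.96% of the tests of all genes were called. APAP called 56 of 224 tests of these genes, 5 up and 51 down in 16 tissues, against 9.95% of all tests of that drug, and cisplatin 45, 7 up and 38 down, against 11.1%. Sucrose called 40, 34 up and 6 down, against 6.29%, Dox 27, 26 up and 1 down, against 0.994%, asenapine 21, 18 up and 3 down, against 4.67%, and EMPA 15, 14 up and 1 down, against 0.714%. The labels do not tie the tissues to mice, so that tests of a treatment in different tissues may share them, and tests within a set share controls. By gene, Fasn was called most often, in 37 of 384 tests, 22 up and 15 down, then Acly in 36 (15 up, 21 down) and Scd1 in 34 (21 up, 13 down). Scd2 was called in 26 of 368, of which 20 were down, 12 of them with APAP. Acacb was called in 13 of 272 tests, all 13 up, including 3 with APAP and 3 with cisplatin, which lowered most of the other genes. Where Acacb is low, as in the CMCTween livers, a fall is harder to call than a rise. The regulators Srebf1 and Mid1ip1 were called in 15 of 352 and 11 of 384 tests.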

How the data were processed

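RNA of 24 tissues was measured in 868 QuantSeq 3′ libraries. The deposited values are whole-number read counts per gene, which the authors made with bcl2fastq 2.17, TopHat2 2.1.1 and HTSeq 0.9.1 on mm10, per the submitters' processing notes. Counting settings and the annotation are not given in the sources used here. Samples were grouped by tissue and treatment from the labels. The library sets rest on expression values seen in earlier work on these data, and the members, gene lists and markers were likewise chosen with earlier results of these data known.

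Each tissue was fitted once with all 18 treatment groups by edgeR 4.0.16 in R 4.3.3 (quasi-likelihood F test, TMM scaling, filterByExpr with a minimum count of 10), and p was adjusted by Benjamini-Hochberg over all genes of a comparison. The SE is the log2 fold change divided by the square root of F. Tissues were compared in 1 fit of the 48 Untreated libraries. Printed CPM use column sums, fold changes TMM. The filter left out Scd2 in liver and kept Acacb in 17 tissues. Liver and WAT are described for each treatment. Other pairs needed at least 3 members called, and the 10 with most were taken from 28. Of each gene list at most 4 called genes are named, the largest changes first. Likeness is Pearson's r of log2(CPM + 1) with a pseudocount of 1, over tissue means. Alternatives were other scalings, no filter, DESeq2 1.42.0, other references, fits on 1 set, leaving out each library and a replicate block. The scripts were tested on simulated liver counts with the same spread for all genes. There the cisplatin comparison recovered 23.9% of the 2-fold and 79.4% of the 4-fold changes. The simulated spread was not matched to the members. In the measured livers, their spread lay between the 62.1 (Me1) and the 94.6 (Fasn) percentile of all genes tested. Recovery may be lower for them. A gene without a call may therefore still have changed. Total counts ran from 451154 to 12811780, so genes near the filter are measured less precisely in the shallower libraries. Whether replicate numbers pair the libraries is not given in the labels.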

Additional observations from a re-analysis of the deposited data

Results flagged for a closer look

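The response of 12 gene and treatment combinations differed between WAT and liver by the test of the difference itself (edgeR's quasi-likelihood F test on both tissues, Benjamini-Hochberg adjusted, log2 values as WAT minus liver). With sucrose these were Srebf1 at −2.36 (adjusted p = 0.00015), Me1 at −1.40 (0.005) and Scd1 at −1.32 (0.026). With APAP they were Mid1ip1 at 2.84 (0.0035), Srebf1 at 2.39 (0.003), Acacb at 1.51 (0.024) and Scd1 at 0.85 (0.024) on the positive side. On the negative side they were Scd2 at −3.74 (0.015), Acly at −1.53 (0.0051) and Me1 at −1.09 (0.0024). With cisplatin they were Scd1 at 3.11 (0.01) and Fasn at −2.63 (0.02). Each rests on 2 libraries per group and tissue, and the comparisons of a set share their controls.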

How the results depend on the processing

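Single-gene values under the alternatives were taken only for genes called with the settings used above. A gene that gained a call is therefore not among them. Of these values, 1563 kept their direction and side of the threshold, 233 kept the direction but no longer passed, and 10 took the other sign. The 10 were, without sucrose replicate 1 in thymus, Acaca at −0.16 and Me1 at −0.47, where leaving out sucrose replicate 2 gave 1.44 and 1.75, the highest values of both genes over the libraries left out. With CMCTween in place of Untreated libraries they were Elovl6 at −0.73 and Scd2 at −0.54 in WAT against the other tissues, Scd2 at 0.042 in skin, and Acly at −0.43 in WAT against liver. With Sucrose libraries they were Mid1ip1 at −0.17 in the adrenal gland, and Acacb at −0.86 and Scd1 at −0.077 in WAT against liver. With library sizes from column sums Mid1ip1 was at 0.059 in WAT against liver. The cause was not tested for these or for the counts that follow. Counts of members called with column sums were 2 for Dox in liver, 3 for cisplatin in skeletal muscle, 3 for APAP in thymus, 1 for Dox and 2 for EMPA in WAT, and 0 for the cisplatin difference between WAT and liver. That scaling shifted the median of all genes by 0.396 (sucrose), −0.358 (APAP), −0.221 (EMPA) and 0.206 (asenapine) in parotid gland, 0.226 (APAP) and 0.108 (sucrose) in thymus, −0.133 (Dox) and 0.109 (sucrose) in liver, −0.125 (Dox) in WAT, and by −0.554 (brain) to 0.617 (WAT against liver) between tissues. With DESeq2 counts were 2 for Dox in liver, 2 for cisplatin in skeletal muscle, 2 for sucrose and 3 for APAP in thymus, and 8 for the other liver and WAT comparisons. With no filter they were 3 for cisplatin in skeletal muscle, 53 for the other liver and WAT comparisons and 5 for the sucrose difference between WAT and liver. With only the set's libraries they were 1 for Dox in WAT and 13 for the other comparisons. Against all other groups of the set, cisplatin called 5 in liver, 8 in skeletal muscle and 10 in WAT. Against Untreated alone, APAP called 2 in aorta. Brain against the other tissues called 4 with RLE and 2 with CMCTween libraries, and WAT 5 with CMCTween libraries. Leaving out each library gave 3 to 5 for APAP in aorta. In liver it gave 2 to 3 for sucrose, 4 to 7 for APAP, 1 to 3 for cisplatin and 1 to 3 for Dox, and in WAT 3 to 7 for APAP, 3 to 5 for cisplatin, 0 to 3 for Dox and 1 to 5 for EMPA. In parotid gland it gave 1 to 6 for sucrose, 6 to 7 for APAP, 6 to 7 for Dox, 1 to 5 for EMPA and 5 to 8 for asenapine, with 4 to 6 for cisplatin in skin, 3 to 4 in skeletal muscle, and 0 to 7 for sucrose and 3 to 5 for APAP in thymus. Between tissues it gave 7 to 7 for adrenal gland, 7 to 7 for brain, 5 to 8 for liver, 8 to 8 for skin, 8 to 9 for WAT, 6 to 8 for WAT against liver and 7 to 9 for brain against liver. Where 1 library was left in a group, its spread was taken from the other groups.

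With the replicate block the counts were 5 for asenapine and 5 for sucrose in parotid gland and 3 for sucrose in thymus. They were 5 for cisplatin and 4 for EMPA in WAT, and 2 for the other liver and WAT comparisons. The remaining treatment counts equalled those without it. Between tissues the block was fitted on the 18 tissues with replicate numbers 2 and 4. It gave 5 for brain against 7 in all tissues, a change that also takes in the tissues left out. The other tissue counts with a block were equal. The adrenal gland and the differences between WAT and liver had no fit with a block. Deviations of same-numbered libraries correlated at −0.127 to 0.141 in 8 pairs of groups and at −0.432 to 0.569 (median 0.00454) in 153 pairs of tissues, so that the numbers are not shown to pair the libraries.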
